A study of Mus musculus with 31 samples.

Results

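Krüppel-like factors (KLFs) are a family of TFs, and the chromatin at 10 of their genes is described here in NIH-3T3 cells, an immortalised line of mouse fibroblasts. The 10 genes, Klf2, Klf3, Klf4, Klf5, Klf6, Klf7, Klf9, Klf10, Klf11 and Klf13, were taken as a list of names out of 21938 protein-coding genes of the GENCODE annotation of mm10. The rule used no measured value, but the list was drawn up with earlier results of this library known. Accessible chromatin was measured by ATAC-seq, in which the transposase Tn5 cuts DNA that is not packed into nucleosomes and tags the fragments for sequencing. The study asked how TFs occupy and open chromatin, and its series holds 31 ATAC-seq samples of NIH-3T3 cells. Of these, 26 overexpress 1 of 13 TFs, 4 carry only the doxycycline-responsive activator rtTA3G, and 1 is the parental line, labelled WT. The parental library, made from 50000 cells, is the one analysed here. Its labels list no transgene and no doxycycline, and those of the other 30 samples, not analysed here, list 500 ng/ml of doxycycline for 48 h. The study's methods mention this treatment for NIH-3T3 cells without excepting the parental line, so that whether its cells received doxycycline is not known.

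The library has no replicate, so the values below describe this 1 library and no difference between conditions was tested. The authors' list holds 63456 peaks, of which 17 lay within 1 kb of a start of a KLF gene, 14 elsewhere in the gene bodies, and 32 before and 38 past the genes within 50 kb, with 0 shared between 2 KLF genes. Each peak comes with a fold enrichment, which is the number of fragments over its summit divided by the number expected locally, with 1 added to each. The number of fragments was solved from the fold enrichment and the deposited p-value and came out whole, within 0.02, at all of these peaks. The 95% intervals given are exact Poisson intervals on these fragments with the local expectation taken as fixed, and they cover counting error only. In a bulk library, a site that is open in more cells and a site that is more open in each cell cannot be told apart. A peak is a measure of accessibility and not of transcription.

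KLFs bind GC-rich and CACCC sequences through zinc fingers at their C terminus, which they share with the SP family, and differ in the regions that recruit other proteins. One group, with Klf2, Klf4, Klf5, Klf6 and Klf7, is known to work with acetyltransferases, Klf3 recruits the corepressor CtBP, and Klf9, Klf10, Klf11 and Klf13 bind the corepressor Sin3A. Several of these genes, among them Klf2, Klf4, Klf6 and Klf10, are known as genes that respond quickly to serum and growth factors in fibroblasts.

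All 10 KLF genes had a promoter peak, meaning a peak within 1 kb of an annotated transcription start site (TSS), against 53.7% of all protein-coding genes. At each of the 10, the highest promoter peak by fold enrichment covered the outermost TSS. In 8 of the 10, the summit of that peak lay before the TSS, by 93 bp at Klf10 to 468 bp at Klf4, and in Klf7 and Klf11 it lay 551 and 56 bp inside the gene. Each of the 10 also had a CpG-rich start, with a ratio of observed to expected CpG dinucleotides between 0.739 at Klf10 and 1.02 at Klf9, and a median of 0.865 against 0.586 for all protein-coding genes. A ratio of at least 0.6 was counted as CpG-rich. Of the 10742 protein-coding genes with such a start, 81.7% had a promoter peak, so the presence of a peak at the KLF genes is to be read against this higher share.

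By fold enrichment the KLF promoters were unexceptional, and by fragments they were high. The median of their highest promoter peaks was a fold enrichment of 9.32, against 9.86 for the 11788 protein-coding genes with a promoter peak. The median summit lay under 124 fragments, against 64 for the same genes. This was not particular to the 10 genes. The 5 other KLF and SP genes with a promoter peak, described below, had a median of 122 fragments. The local expectation at these summits was also high, with a median of 12.5 fragments against 5.26 over all peaks within 1 kb of a TSS, and a high expectation lowers the fold enrichment by its construction. The 17 promoter peaks of the KLF genes were wide, with a median of 962 bp against 629 bp for all peaks near a TSS.

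**Figure D1:**
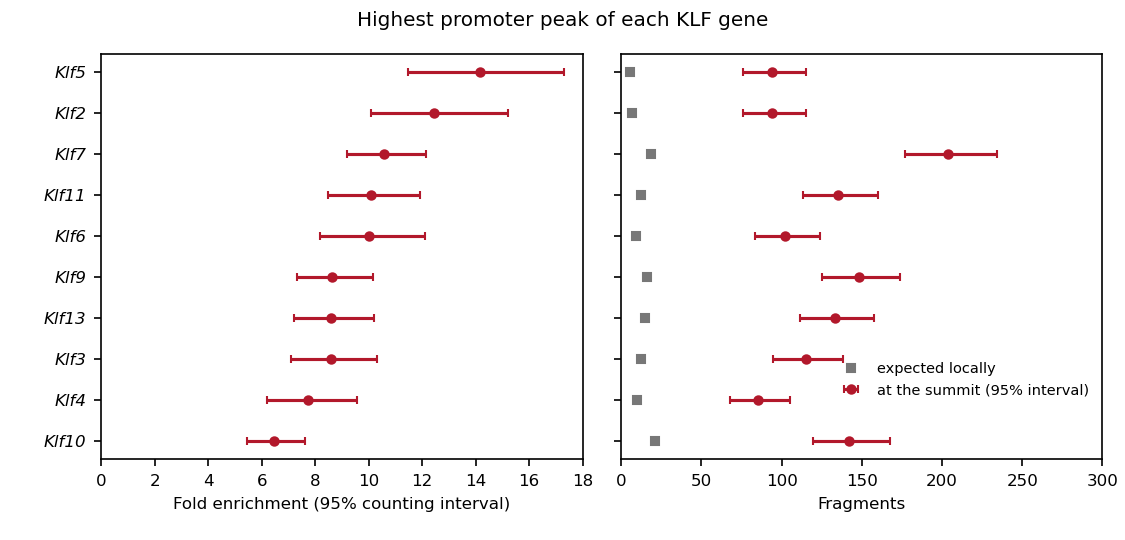
The highest promoter peak of each KLF gene, ordered by fold enrichment. The left panel gives the fold enrichment and the right panel the fragments at the summit (circles, with exact 95% Poisson intervals) and the fragments expected locally (squares). Klf5 was highest by fold enrichment (14.2) and Klf7 by fragments (204), while Klf10 was lowest by fold enrichment (6.47) with 142 fragments and the highest expectation (21.1).

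The order of the genes depended on the scale. By fold enrichment it ran Klf5, Klf2, Klf7, Klf11, Klf6, Klf9, Klf13, Klf3, Klf4 and Klf10, and the intervals of all neighbours in this order overlapped. Of the 45 pairs of genes, 10 had intervals of fold enrichment that did not overlap, and 9 of these included Klf5 or Klf10, the other being Klf2 with Klf4. By fragments Klf7 stood apart from each of the other 9 genes, and 18 of the 45 pairs did not overlap.

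Sequences just before the TSS are shown for promoters that differ in their motifs. The promoter sequences come from the GRCm38 (mm10) genome of RefSeq and run 5′ to 3′ along the strand of the gene, ending just before or within 10 bp of the TSS. Capitals mark matches on either strand to any of the motifs searched. The GC box, the site of SP and KLF factors, was taken as GGGCGG. For the CACCC box, which KLFs favour, the letters searched were CCACCC. The box of the factor NF-Y was taken as CCAAT, and the E-box of factors such as MYC and USF was searched for as CACGTG.
Klf13, chr7:63938916-63939065, minus strand: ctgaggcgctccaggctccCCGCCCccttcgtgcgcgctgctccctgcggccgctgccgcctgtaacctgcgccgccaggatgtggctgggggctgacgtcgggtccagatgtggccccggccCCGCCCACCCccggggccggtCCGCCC
Klf11, chr12:24651124-24651273, plus strand: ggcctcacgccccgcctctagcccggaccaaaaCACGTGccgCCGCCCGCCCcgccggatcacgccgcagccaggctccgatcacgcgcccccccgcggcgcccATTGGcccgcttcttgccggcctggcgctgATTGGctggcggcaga
Klf6, chr13:5861332-5861481, plus strand: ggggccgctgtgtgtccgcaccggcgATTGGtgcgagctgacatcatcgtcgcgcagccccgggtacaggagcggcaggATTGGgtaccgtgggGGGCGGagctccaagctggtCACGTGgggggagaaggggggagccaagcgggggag
Klf4, chr4:55532476-55532625, minus strand: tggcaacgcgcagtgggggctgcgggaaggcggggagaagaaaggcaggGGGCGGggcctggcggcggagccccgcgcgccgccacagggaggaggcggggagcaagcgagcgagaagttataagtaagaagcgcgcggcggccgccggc
Klf9, chr19:23141076-23141225, plus strand: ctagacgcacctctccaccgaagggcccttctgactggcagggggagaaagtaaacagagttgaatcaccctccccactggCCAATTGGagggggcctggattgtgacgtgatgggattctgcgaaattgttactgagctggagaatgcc
In Klf13 a GC box and a CACCC box share bases, and in Klf11 a pair of GC boxes overlap. Klf6 and Klf11 both carry CCAAT boxes and an E-box beside GC boxes. The stretch of Klf9 holds a CCAAT box on each strand, sharing bases, and no GC box.

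Over the whole 300 bases of the RefSeq promoters, from 250 before to 50 after the TSS, 8 of the KLF genes could be searched, and Klf5 and Klf10 could not. GC boxes were present in 7 of the 8, all but Klf9, against 35.7% of 32851 promoters and 72.3% of the 11765 CpG-rich ones. CACCC boxes were present in Klf2, Klf3, Klf7 and Klf13, 4 of 8, against 36.1% of the CpG-rich promoters. CCAAT boxes were present in Klf6, Klf9, Klf11 and Klf13, again 4 of 8, against 35.7%. An E-box was present in Klf4, Klf6 and Klf11, 3 of 8, against 11.2%. The AP-1 site (TGACTCA) was in 0 of the 8, against 2.5% of the CpG-rich promoters. Also in 0 of the 8 were the CRE (searched as TGACGTCA), against 3.7%, and the CArG box, against 1.1%. The site of TEAD factors, CATTCC, was in 0 of the 8 as well, against 9.9%. GC and CACCC boxes can overlap each other, 8 promoters allow no more than a description, and a match is not a bound site.

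Among the genes of the group that works with acetyltransferases, Klf5, a regulator of proliferation in gut epithelium and smooth muscle, had the highest promoter fold enrichment. Its peak at chr14:99298309-99299270 reached 14.2 (11.5 to 17.3) with 94 fragments against 5.70 expected and a −log10 q of 74.8. It was also the gene with the fewest peaks around it, 3 within 50 kb, the others being peaks of 4.53 at 2.87 kb before the TSS and 3.68 at 9.60 kb past the gene end. Among the 10 genes listed, Klf5 was thus the only one below the median of 5 peaks of all protein-coding genes.

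Klf2, known for its part in endothelial and T cell quiescence, followed with a promoter peak at chr8:72318645-72319607. It had the same 94 fragments as Klf5, against 6.63 expected, for a fold enrichment of 12.4 (10.1 to 15.2). The gene is the shortest of the 10, with a length of 2.62 kb and a single annotated TSS, and held 0 further peaks in its body. Of the 7 peaks within 50 kb, the highest away from any TSS had a fold enrichment of 8.81 at 15.8 kb before the TSS. Its nearest coding TSS was that of Gm10282. Nearest coding TSSs are given here and below by the outermost TSS of each protein-coding gene.

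Klf7, known for its function in neurons and fat cells, had the promoter peak with the most fragments, at chr1:64121567-64122659. It held 204 fragments (177 to 234) against 18.4 expected, a number that 0.611% of the protein-coding genes with a promoter peak reached, itself included, and a fold enrichment of 10.6 (9.19 to 12.1). This peak covers the outermost TSS, at position 64122282. The other annotated TSSs, at 64121482 and 64121491, lie in the gap between it and a second peak, at chr1:64121343-64121459. They are 23 and 32 bp from this second peak, which is weak, with a fold enrichment of 2.06 (1.48 to 2.80) and 39 fragments. The summit of the first peak, at 64121731, lies 551 bp inside the outermost TSS and before the other TSSs on the minus strand. Which TSS the first peak belongs to was not tested.

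Klf6, a growth-suppressing factor that responds to injury and stress, had a promoter peak at chr13:5861067-5861884 with a fold enrichment of 10.0 (8.17 to 12.1) and 102 fragments. A lower peak of 3.59 at chr13:5863609-5863835 lay 843 bp from the TSS of a transcript with a retained intron.

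Klf4, one of the reprogramming factors and a regulator of epithelial barriers, had the fewest fragments among the highest promoter peaks. Its peak at chr4:55532217-55533097 had 85 fragments (67.9 to 105) against 10.1 expected and a fold enrichment of 7.74 (6.20 to 9.55). A peak in an exon of the gene, at chr4:55530087-55530582, reached 3.79, and a small peak of 2.54 lay 1.51 kb before the TSS.

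Klf3, the CtBP-binding repressor with known roles in red blood cells and fat, had 2 open promoters. The first, at chr5:64802686-64803778, had a fold enrichment of 8.60 (7.11 to 10.3) and 115 fragments, and it also lies within 1 kb of the starts of the annotated genes Gm20033 and C230096K16Rik. The second, at chr5:64811297-64812395, had 4.47 (3.08 to 6.29) and 31 fragments and covered a further group of annotated TSSs, those at 64812339, 64812340 and 64812384. An intronic peak between them, at chr5:64806034-64806488, was higher than the second promoter, with a fold enrichment of 6.56 (5.30 to 8.03) and 92 fragments, although no TSS is annotated within 1 kb of it.

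Among the genes of Sin3A-binding factors, Klf10, an early gene of the response to TGF-β, had 2 promoter peaks of equal height. They lay at chr15:38300549-38301504, over the outermost TSS at 38300706, and at chr15:38298922-38300015, over inner TSSs at 38299082 and 38299795. Each held 142 fragments (120 to 167), with a fold enrichment of 6.47 at the first and 6.46 at the second. The expectation of 21.1 fragments at each was the highest among the promoter peaks of the 10 genes. Klf10 was therefore last by fold enrichment and at rank 3 by fragments.

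Klf11, also induced by TGF-β, had the widest promoter peak of the 10 genes, of 1739 bp at chr12:24650609-24652347. It covered all 3 of its distinct TSSs, with a fold enrichment of 10.1 (8.47 to 11.9) and 135 fragments. Klf9, induced by glucocorticoid and thyroid hormone, had 148 fragments (125 to 174) and a fold enrichment of 8.64 (7.32 to 10.1) at chr19:23140652-23141690. A second peak of 5.45 at chr19:23142462-23143038 lay 606 bp from the TSS of a processed transcript.

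Klf13, which is known to activate the chemokine gene Ccl5 in T cells, had 3 promoter peaks. The highest, at chr7:63938340-63939922, had a fold enrichment of 8.60 (7.21 to 10.2) and 133 fragments. The next, at chr7:63937328-63938170, had 4.88 and 76 fragments, and the last, at chr7:63925357-63925544, had 4.03 and 17 fragments and lay 487 bp from an inner TSS at 63924870. At the limit of 1 kb, a TSS at 63936332 was 996 bp and one at 63936301 was 1027 bp from the nearest peak.

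In all, 6 of the 10 genes had 2 or more promoter peaks, Klf3, Klf6, Klf7, Klf9, Klf10 and Klf13, against 13.0% of all protein-coding genes. With starts of coding transcripts only, this held for 4 genes, without Klf6 and Klf9, against 10.0%. At a fold enrichment of 5 or more, it held for Klf9 and Klf10 only, against 5.66%. The 10 genes have 34 distinct annotated TSSs, of which 22 lay inside a peak and 30 within 1 kb of one. The number of peaks that can be counted rises with the number of annotated TSSs, which went from 1 at Klf2 to 9 at Klf3.

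**Figure D2:**
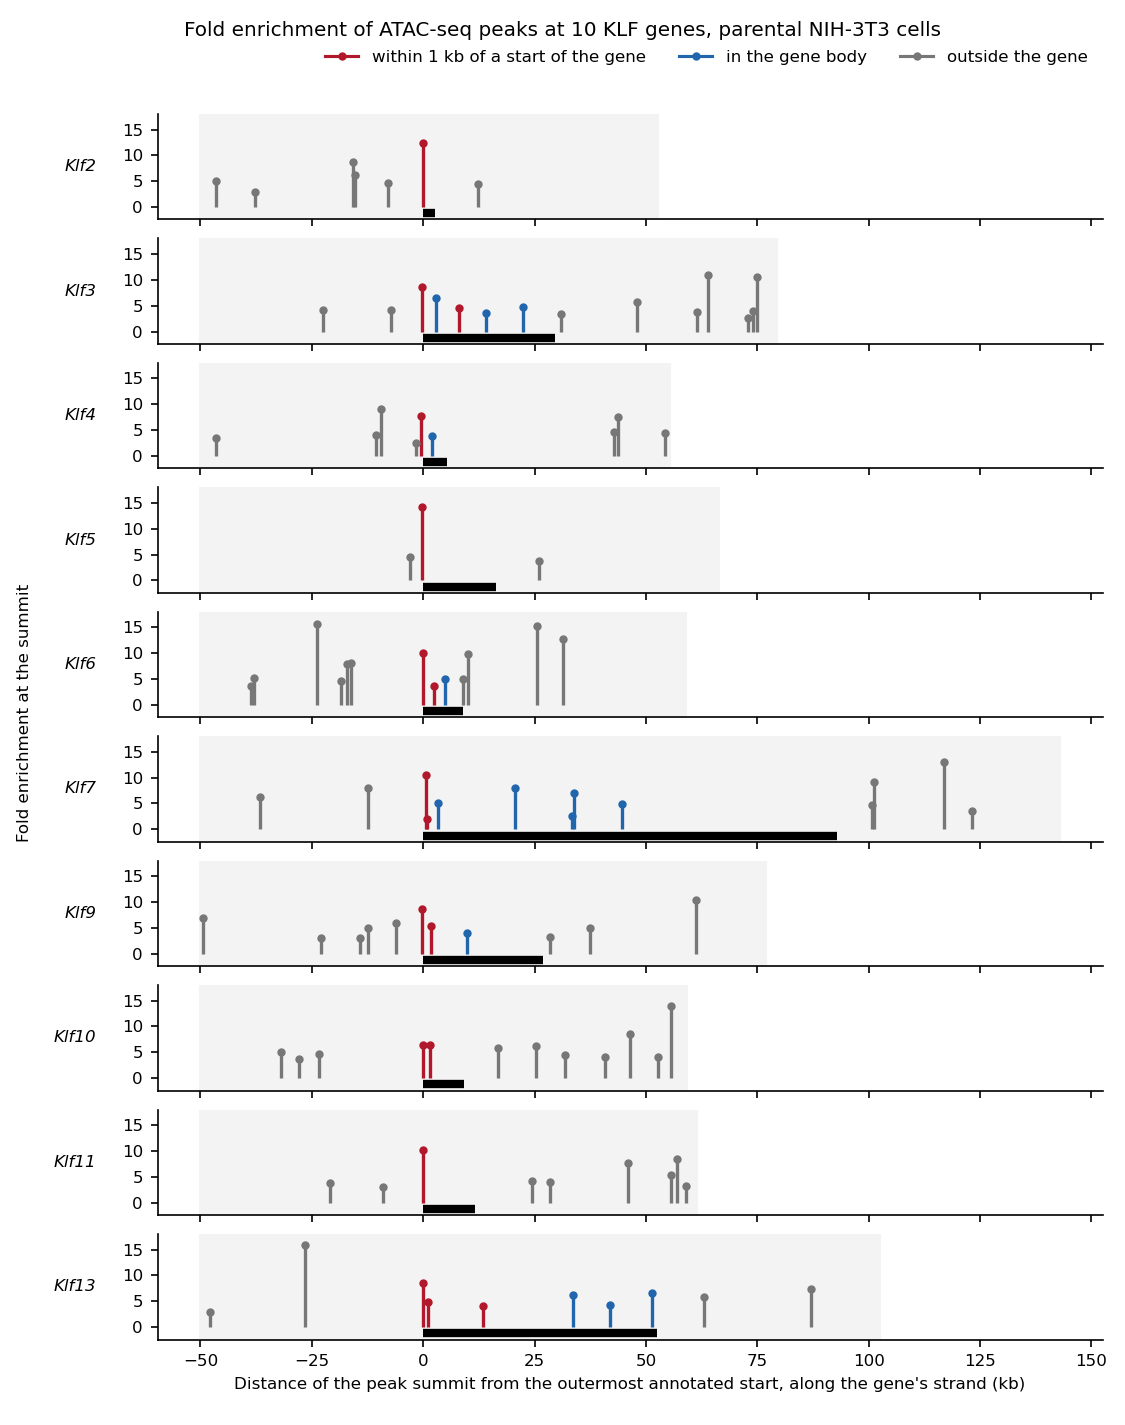
ATAC-seq peaks at the 10 KLF genes, one gene per row. The horizontal axis is the distance of the summit from the outermost TSS along the strand of the gene (kb), the vertical axis the fold enrichment, black bars the genes and grey shading the gene with 50 kb to either side. The highest peaks of Klf6 (15.7) and Klf13 (15.9) lay outside the genes, before the TSS, while Klf2, Klf5 and Klf11 had no peak as high as that of the promoter.

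Away from their own TSSs, 6 of the 10 genes held peaks in the gene body, 14 peaks in all, against 34.3% of all protein-coding genes with such a peak. Klf7, the longest gene at 92.8 kb, had 5, Klf3 and Klf13 had 3 each, and Klf4, Klf6 and Klf9 had 1 each. The highest was an intronic peak of Klf7 at chr1:64101429-64101843, with a fold enrichment of 7.89 (5.88 to 10.4), 20.7 kb after the outermost TSS. In Klf13, a peak in an exon at chr7:63887369-63887626 reached 6.51, although its nearest coding TSS was that of E030018B13Rik, and in Klf6 and Klf9 the intronic peaks reached 4.99 and 4.04. The bodies of Klf2, Klf5, Klf10 and Klf11 held 0.

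Within 50 kb, 9 of the 10 genes had more peaks than the median protein-coding gene. Klf3 had 14, Klf6 and Klf7 13 each, Klf10 12, Klf9 11, Klf13 10, Klf4 and Klf11 9 each, Klf2 7 and Klf5 3. The median of the 10 was 10.5, against 5 for all protein-coding genes and 7 for those with a CpG-rich start. The median length of the 10 genes was 13.9 kb, against 17.4 kb for all protein-coding genes. Their lengths ran from 2.62 kb at Klf2 to 92.8 kb at Klf7. Whether length bears on the counts was not tested. Nearby genes contributed to some counts, since 12 of the peaks lay within 1 kb of a TSS of another gene but of no TSS of the KLF gene itself. For 77 peaks, the nearest outermost TSS of a protein-coding gene was that of the KLF gene. Inner TSSs were not counted, so the promoter peak of Klf13 that lies 487 bp from an inner TSS is not among the 77. Just outside the limit, the nearest further peak lay 50.04 kb from Klf11 with a fold enrichment of 9.31, and just inside it, a peak of 6.89 lay 49.3 kb from Klf9.

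**Figure D3:**
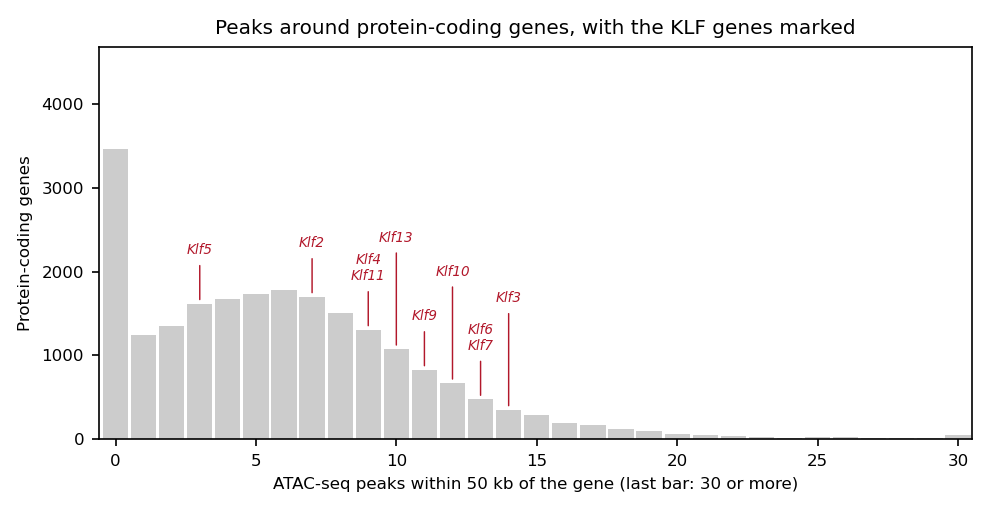
Number of protein-coding genes (vertical axis) by the number of ATAC-seq peaks within 50 kb of the gene (horizontal axis), with the KLF genes marked. Klf5, with 3 peaks, lay below the median of 5, and the other 9 genes lay above it, up to 14 peaks at Klf3.

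The peaks more than 1 kb from any annotated TSS numbered 72 around the 10 genes, and the medians of the set lay close to those of the library. Their median fold enrichment was 4.78 and their median depth 28 fragments, against 5.54 and 25 for the 47192 such peaks of the library. A few were high. In 6 genes, Klf3, Klf4, Klf6, Klf7, Klf9 and Klf13, the highest distal peak had a larger fold enrichment than the highest promoter peak. The share of all protein-coding genes for which this holds is not given here. All 10 genes, and not only these 6, had more distal than promoter peaks to take the highest from. The intervals of the highest distal and the highest promoter peak overlapped in 7 of the 10 genes. They were apart in Klf6 and Klf13, where the distal peak was higher, and in Klf5, where the promoter peak was. By fragments, a distal peak exceeded the promoter peaks in only 2 genes, Klf3 (118 against 115) and Klf6 (107 against 102), with overlapping intervals in both. At Klf3 this was another peak than the highest by fold enrichment. The difference between the scales goes with the local expectation, which had a median of 4.31 fragments at the distal peaks and 12.5 at the promoter peaks.

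The summit with 50 bases to either side is shown for the highest distal peak of each of these 6 genes, along the strand of the gene and from the same genome. Capitals mark the AP-1 site, which is TGACTCA on either strand, CACCC boxes and the E-box.
Klf6, chr13:5837503-5837603: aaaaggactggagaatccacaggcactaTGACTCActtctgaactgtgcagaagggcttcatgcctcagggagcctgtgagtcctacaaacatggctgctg
Klf7, chr1:64005353-64005453: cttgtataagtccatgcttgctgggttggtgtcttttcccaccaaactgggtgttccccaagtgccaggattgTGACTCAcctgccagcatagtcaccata
Klf3, chr5:64867328-64867428: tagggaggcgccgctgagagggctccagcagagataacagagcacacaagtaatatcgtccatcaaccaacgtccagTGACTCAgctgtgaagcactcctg
Klf4, chr4:55541822-55541922: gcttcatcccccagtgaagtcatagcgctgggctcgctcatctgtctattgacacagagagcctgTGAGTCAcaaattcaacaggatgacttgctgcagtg
Klf13, chr7:63965294-63965394: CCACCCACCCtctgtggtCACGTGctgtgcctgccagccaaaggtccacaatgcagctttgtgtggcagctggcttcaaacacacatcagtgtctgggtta
Klf9, chr19:23202330-23202430: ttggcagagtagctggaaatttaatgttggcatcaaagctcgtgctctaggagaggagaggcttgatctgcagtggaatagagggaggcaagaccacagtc
The first 4 of these each hold 1 AP-1 site, the sequence bound by FOS and JUN dimers, Klf13 holds none but has overlapping CACCC boxes and an E-box, and Klf9 holds none of the motifs searched. Over the highest distal summits of all 10 genes, the site was present in these 4 only. The share for the highest distal summits of other genes is not given here. These summits were picked by fold enrichment, whose median over all distal peaks was 6.31 with the site and 5.30 without. The share over all distal peaks, given below, is therefore not a matched one.

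The peak of Klf13 around this summit, at chr7:63965058-63965672, was the highest within 50 kb of any of the 10 genes. It lay 26.4 kb before the TSS and had a fold enrichment of 15.9 (12.8 to 19.6) with 86 fragments against 4.46 expected. It was higher than 97.8% of all peaks of the library, and its interval lay above that of the Klf13 promoter (7.21 to 10.2). Nearly as high was the peak of Klf6 at chr13:5837202-5837902, 23.9 kb before the TSS, with 15.7 (12.9 to 18.9) and 107 fragments against 102 at the promoter.

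Several other high peaks surrounded Klf6. Between 16.1 and 18.4 kb before the TSS lay a group of 3 peaks with fold enrichments of 8.10, 7.94 and 4.62. Past the gene end, a peak at chr13:5892641-5893112 reached 12.7 (9.52 to 16.5) and held an AP-1 site, and a peak at chr13:5871461-5871894 reached 9.79. Another, at chr13:5886863-5887253, reached 15.2 but lies within 1 kb of the start of the annotated gene Gm47507. The nearest coding TSS of each of these peaks was that of Klf6.

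At Klf7 the highest distal peak, at chr1:64005310-64005712, lay 23.7 kb past the gene end with a fold enrichment of 13.1 (10.4 to 16.2) and 81 fragments. At Klf3 it lay 33.9 kb past the gene end, at chr5:64866759-64867850, with 10.9 (8.78 to 13.3) and 92 fragments. A further peak at chr5:64877955-64878746 had more fragments (118) than the Klf3 promoter (115). By outermost TSSs its nearest coding gene was Tlr1, although an inner coding TSS of Klf3, at 64826809, lay nearer. At Klf9 the highest distal peak, at chr19:23202122-23202715, reached 10.4 (7.92 to 13.5), and at Klf4 the peak at chr4:55541047-55542029, 9.41 kb before the TSS, reached 9.06 (6.85 to 11.8).

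The remaining genes had lower distal peaks. At Klf11 the highest, at chr12:24697194-24697821, had a fold enrichment of 7.62 and lay closer to the TSS of Rrm2. At Klf10 the highest distal peak, at chr15:38283821-38284377, reached 5.78. A peak of 13.9 with 138 fragments, at chr15:38244714-38245556, lay 45.9 kb past the end of Klf10, but within 1 kb of the start of Gm8705 and with the TSS of Odf1 as its nearest coding TSS.

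An AP-1 site lay within 50 bp of the summit at 16 of the 72 distal summits, or 22.2% (95% Wilson interval, 14.2% to 33.1%), against 26.4% of all 47192. These 16 were spread over 9 of the genes, all but Klf11. Their median fold enrichment was 5.34, with a range from 3.45 to 15.7, against 4.66 for the distal peaks without the site. Over all distal peaks the medians were 6.31 and 5.30. The share rose with the width searched, in both sets. It was 8.33% (3.88% to 17.0%) against 13.5% in windows of 51 bp and 34.7% (24.8% to 46.2%) against 40.8% in whole peaks, so that the interval included the share of all distal peaks at each of these widths.

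Of the other motifs, the CACCC box was present at 8 of the 72 summits, or 11.1% (5.74% to 20.4%), against 8.95% of all distal summits. The TEAD site was present at 6, or 8.33%, against 9.52%, and the GC box at 3, or 4.17%, against 3.52%. The CCAAT box, found in 4 of the 8 promoters, was present at 4 of the 72 distal summits. This was 5.56% (2.18% to 13.4%) against 13.8%, the one interval that did not include the share of all distal peaks. The E-box was present at 2, in Klf3 and Klf13, or 2.78%, against 1.72%. The CRE and the CArG box were present at 0, against 0.21% and 0.63%. As 8 motifs were searched and summits of 1 gene are neighbours, this single departure is given as a description.

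**Figure D4:**
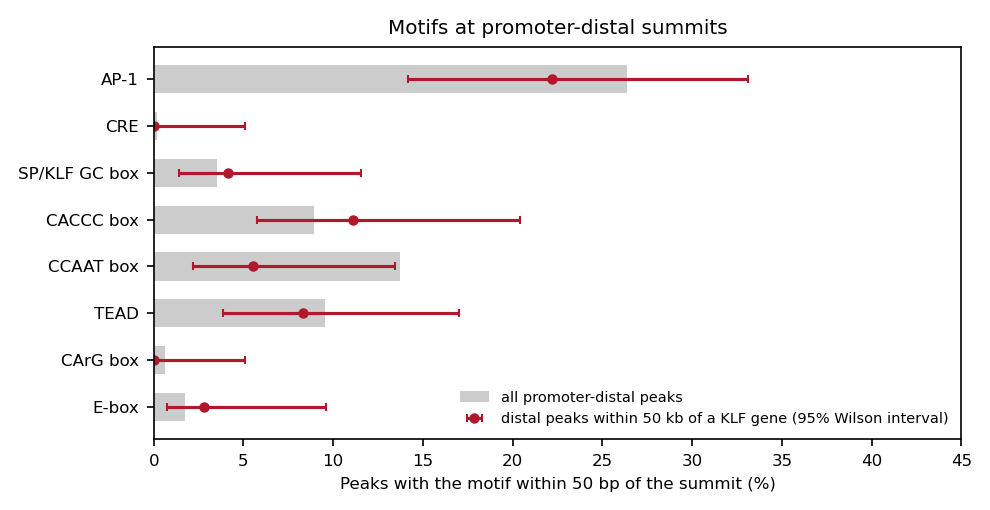
Share of promoter-distal summits with each motif within 50 bp (horizontal axis, %) for the 72 peaks within 50 kb of a KLF gene (circles, with 95% Wilson intervals) and for all 47192 distal peaks (bars). The share of the AP-1 site was 22.2% against 26.4%, and the CCAAT box, at 5.56% against 13.8%, was the one whose interval left out the bar.

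The groups by protein partner overlapped in the height of their promoter peaks. The median fold enrichment was 10.6 in the 5 genes that work with acetyltransferases, 8.60 in Klf3 and 8.62 in the 4 Sin3A-binding genes. By fragments the order turned, with medians of 94, 115 and 138.5. The ranges of fold enrichment, from 7.74 to 14.2 in the first group and from 6.47 to 10.1 in the last, overlapped. So did the ranges of fragments, from 85 to 204 in the first group and from 133 to 148 in the last. This second overlap rested on Klf7 (204), since the other genes of the first group ran from 85 to 102.

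In the rest of the family, 5 of the 16 other KLF and SP genes had a promoter peak, against 53.7% of all protein-coding genes. These were 1 of 7 KLF genes (Klf16) and 4 of 9 SP genes. The highest were Sp4 with a fold enrichment of 8.99, Sp1 with 8.49 and Sp2 with 7.83, of which Sp1 encodes a ubiquitous activator. Klf1, Klf8, Klf12, Klf14, Klf15, Klf17, Sp5, Sp6, Sp7, Sp8 and Sp9 had none, among them Klf1, which is specific to red blood cells, and Sp7, which is specific to bone. A CpG-rich start was present in 9 of the 16, and of these 4 had a promoter peak and 5 did not, Klf12, Klf14, Klf15, Sp5 and Sp9. Of all protein-coding genes with such a start, 81.7% had one. The nearest peak to a TSS of Klf12 was 2377 bp away. Because of how the 10 genes were named, no test of the 10 against the other 16 is given.

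**Figure D5:**
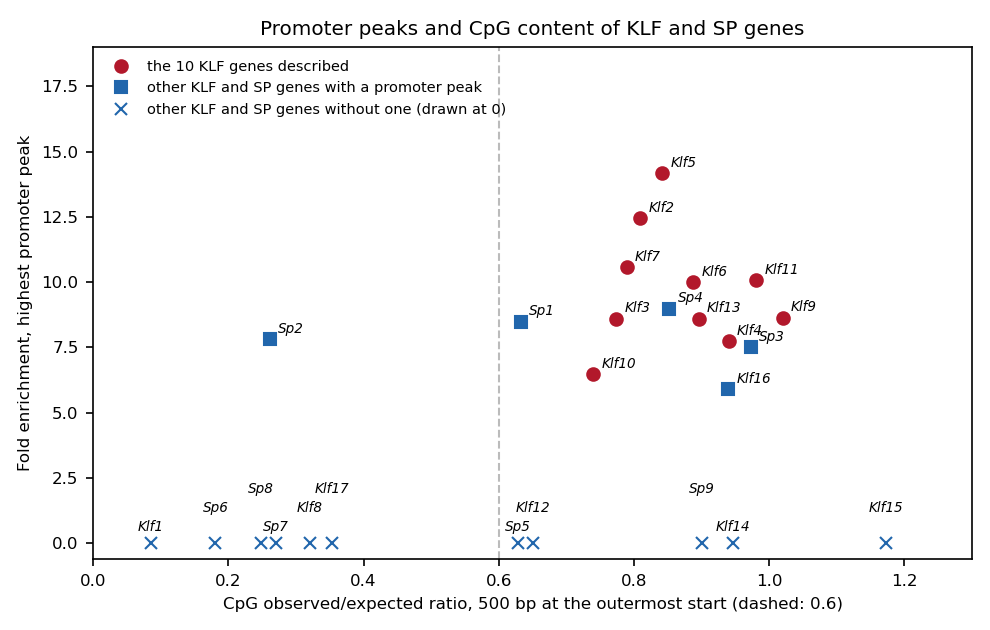
Fold enrichment of the highest promoter peak (vertical axis) against the CpG ratio at the outermost TSS (horizontal axis) for the 10 KLF genes (circles), for the other KLF and SP genes with a promoter peak (squares) and for those without one (crosses, drawn at 0). All 10 circles lie at CpG ratios of 0.739 and above, where Klf14, Klf15 and Sp9 also lie without a peak.

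Genes of proteins that KLFs are known to work with, or that control them, had a promoter peak in 21 of 21 cases. Their fold enrichments ran from 3.15 at Mef2c to 16.3 at Wwp1, a ubiquitin ligase of KLF proteins, with a median of 9.76. The list holds corepressors (Ctbp1, Ctbp2, Sin3a), deacetylases (Hdac1, Hdac2), acetyltransferases (Ep300, Crebbp, Kat2b) and the TGF-β receptors and SMADs. The count is to be read against the 53.7% of all protein-coding genes and the 81.7% of those with a CpG-rich start.

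The label of the cells was checked against markers. All 12 fibroblast markers had a promoter peak, with fold enrichments from 3.41 at Thy1 (12 fragments) to 10.5 at Fn1. Peaks were present at 2 of 6 epithelial, 2 of 4 endothelial, 1 of 4 blood, 0 of 2 muscle and 0 of 3 pluripotency markers. These counts are to be read against the 53.7% of all protein-coding genes with a promoter peak. The endothelial pair was Cdh5, with a fold enrichment of 12.8, above that of any fibroblast marker, and Pecam1 with 8.40. Whether these values bear on Klf2, a gene of endothelial cells, was not tested.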

How the data were processed

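The analysis used the peak list of 1 ATAC-seq library, that of the parental line. Per the methods and the submitters' processing notes, reads were aligned to mm10 with STAR 2.5.3a, duplicates were removed with Picard and peaks were called with MACS2 2.1.1.20160309 on paired-end fragments. The authors deposited, per peak, a fold enrichment (a ratio of summit to local expected pileup), a −log10 p, a −log10 q of at least 1.30 and a score, which follows from the −log10 q and was not used. Peaks in repeated sequence can hold misplaced reads; the summits of 4 of the peaks at KLF genes, that of the Klf2 promoter among them, were soft-masked. No shift of fragment ends for Tn5 is described. The depth of the library is not part of the list.

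Fragments and expectation at each summit were solved by bisection, tested on 2000 simulated summits, and were whole for 99.997% of peaks. The lowest expectation, the genome-wide background, was 2.81 fragments. Peaks were compared with GENCODE M21 on GRCm38, and coordinates count from 1. A distal peak lay more than 1 kb from every annotated TSS. CpG ratios were taken 250 bp to either side of the outermost TSS, a choice made after the peaks were seen. Promoter sequences were matched by symbol to the RefSeq table for 8 of 10 genes. The named genes were all members, with the other KLF and SP genes, partners and markers as lists; the peaks named were all promoter peaks and, per gene, the highest gene-body and distal peaks by fold enrichment, and further peaks, such as those around Klf6, were chosen after their values were seen. The genes and lists were chosen with earlier results of these data known. With 1 library no test was made, and leaving out replicates was not possible. Scripts ran under Python 3.11.15 with pysam 0.24.0 for sequence, SciPy 1.17.1 for intervals, pandas 2.3.3, NumPy 2.4.6 and matplotlib 3.10.9.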

Additional observations from a re-analysis of the deposited data

How the results depend on the processing

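No paired analysis was possible because the parental line has a single library. All 10 KLF genes kept a promoter peak under each of the 7 alternatives for the threshold, the distance, the overlap and the annotation. The share of all protein-coding genes with a promoter peak was 52.0% with a q of 1e-05 or below, 48.8% with a fold enrichment of at least 5, 48.7% when the peak had to overlap the TSS, 62.8% at 5 kb, 53.0% by the summit and 52.0% with coding transcripts only. With a fold enrichment of at least 5, the peaks within 50 kb fell to 51 in all and a median of 5 per gene, those in gene bodies to 6 and the genes with 2 or more promoter peaks to 2. A flank of 20 kb gave 63 peaks and a median of 6, and one of 100 kb gave 159 and 16. Peaks in gene bodies were 8 when those within 5 kb of a TSS were left out. These changes follow from the alternatives' own construction. The share of distal peaks with an AP-1 site was 8.33% in windows of 51 bp and 34.7% in whole peaks. The median height of the highest promoter peaks was 71.9 as −log10 q and 124 as fragments, which are other units. In all, 19 values moved and 23 did not, where moved means beyond a 95% counting interval for shares and beyond 1.5 times otherwise. The alternatives for genes with 2 or more promoter peaks were chosen after seeing the data.

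The list holds no cut positions and no second library, so replicate error, expression of the KLF genes and the target gene of a distal peak are not measured here.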
